A study of Mus musculus with 16 samples.

Results

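Tumour necrosis factor, the lymphotoxins, the cytokine RANKL and the receptors of these ligands were followed across sorted cells of the mouse thymus. The 9 genes were Tnf, Lta, Ltb and Tnfsf11 for the ligands and Tnfrsf1a, Tnfrsf1b, Ltbr, Tnfrsf11a and Tnfrsf11b for the receptors. Every probe set whose gene symbol in the platform annotation was one of these was taken, which gave 11 of the 12488 probe sets on the array. Lta and Tnfrsf1a each had a pair of probe sets, and the other genes had 1 each. All 11 passed the filter on dim probe sets.

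RNA of FACS-sorted cells was hybridised to 16 arrays in 8 groups of 2. In 4 groups, medullary thymic epithelial cells (mTEC), from wild-type mice or from mice lacking the transcriptional regulator Aire, were sorted for high (CD80hi) or low (CD80lo) surface CD80, a costimulatory molecule that increases as mTEC mature. The other 4 groups, all from wild-type mice, were mTEC not divided by CD80, epithelial cells of the thymic cortex (cTEC), dendritic cells and macrophages, each sorted from thymus. The sources used here do not give the Aire allele, the strain, the age or sex of the mice, the number pooled for a sample, or whether the samples of one group were taken from different animals, so p-values measure only the spread between these samples, which may be technical.

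TNF is released from cells and binds the receptors encoded by Tnfrsf1a and Tnfrsf1b. Lymphotoxin alpha, from Lta, binds the same receptors when secreted, and together with lymphotoxin beta, from Ltb, it forms a membrane-bound complex that binds the lymphotoxin beta receptor, from Ltbr. RANKL, from Tnfsf11, binds RANK, from Tnfrsf11a, and osteoprotegerin, from Tnfrsf11b, is a soluble decoy that takes up RANKL. In the thymus, RANKL and lymphotoxin made by lymphoid cells are known to drive the growth and maturation of mTEC through NF-kB transcription factors, and osteoprotegerin restrains that growth.

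The genes Ltb, Tnf and Lta lie next to each other on mouse chromosome 17, in that order, with 0 protein-coding genes between neighbours in the RefSeq table of GRCm38.p6. Their promoters are shown because the Tnf probe set and one Lta probe set moved together across the groups while Ltb did not. Each sequence covers the 250 bases before the RefSeq start of the gene (GRCm38.p6), read 5′ to 3′ on the strand of the gene. Capitals mark TATAAA in Tnf and Lta and, in Ltb, a match on the opposite strand to the kappaB consensus, the general form of NF-kB sites. The Tnf window is chr17:35202008-35202257 on the minus strand, the Lta window is chr17:35205352-35205601 on the minus strand, and the Ltb window is chr17:35194257-35194506 on the plus strand.
Tnf: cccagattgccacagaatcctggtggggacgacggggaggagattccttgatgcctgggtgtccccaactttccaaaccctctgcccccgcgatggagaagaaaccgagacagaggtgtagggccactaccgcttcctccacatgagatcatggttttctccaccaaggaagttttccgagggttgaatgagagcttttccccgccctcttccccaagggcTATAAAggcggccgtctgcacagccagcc
Lta: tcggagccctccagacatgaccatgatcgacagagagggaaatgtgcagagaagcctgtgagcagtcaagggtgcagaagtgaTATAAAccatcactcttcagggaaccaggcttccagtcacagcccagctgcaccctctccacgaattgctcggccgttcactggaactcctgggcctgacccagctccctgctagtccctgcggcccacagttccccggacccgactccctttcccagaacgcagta
Ltb: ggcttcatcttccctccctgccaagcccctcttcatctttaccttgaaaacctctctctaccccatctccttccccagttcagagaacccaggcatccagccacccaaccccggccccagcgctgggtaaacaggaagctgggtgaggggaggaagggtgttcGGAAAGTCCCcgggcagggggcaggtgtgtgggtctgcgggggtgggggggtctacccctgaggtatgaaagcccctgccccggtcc
TATAAA stood 29 to 24 bases before the start of Tnf and 167 to 162 bases before that of Lta. The kappaB match stood 87 to 78 bases before the start of Ltb and reads GGGACTTTCC on that strand. Both strands of the 8 member promoters in the table were searched for TATAAA and the kappaB consensus, and the only other match was TATAAA on the opposite strand of Tnfsf11, 32 to 27 bases before its start. Of 32851 promoter windows of this length, 12.4% held TATAAA, 7.25% held the kappaB consensus and 0.14% held the exact string GGGACTTTCC. These matches describe letters in the windows, and bases further upstream were not searched. They were not set against binding data, and their part in the signals was not tested.

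The arrays had the same overall level, with a mean signal of 100.1 on each after trimming 2% at both ends. The sorts showed their markers in part. Epcam, an epithelial surface protein, gave 118.4 to 412.8 on the 10 mTEC arrays and at most 23.6 on those of dendritic cells and macrophages, but the medullary keratins Krt5 and Krt14 reached no more than 18.2 on any mTEC array. Itgax, which encodes CD11c, gave 1187.8 and 1296 in dendritic cells, and Adgre1, which encodes F4/80, gave 506.8 and 1199.1 in macrophages. The first macrophage array stood apart: its epithelial Krt8 signal was 1212.6 against 172.2 on the second, and its summed signal of 12 measured thymocyte markers was 7325.7 against 3099.6. Thymocyte markers summed to 4127 and 7787 in cTEC, 2778 and 2988 in dendritic cells and 322 to 1386 on the mTEC arrays. The Aire probe set gave 1589.1 and 1385.3 in knockout CD80hi cells against 1828.6 and 1704.5 in the wild type. It has not been placed relative to the deleted part here, so it does not check the genotype labels.

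Below, a level is the deposited signal on an array. A difference is a log2 fold change of signal + 4.8 with its standard error from the limma fit after ±. The added constant makes differences of dim genes too small. Rose, fell, higher and lower, said of a difference, mean that it passed a limma adjusted p of 0.05 over all 9319 tested probe sets. Signals of at most 17.3, the 40th percentile of the table, are called dim.

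**Figure D1:**
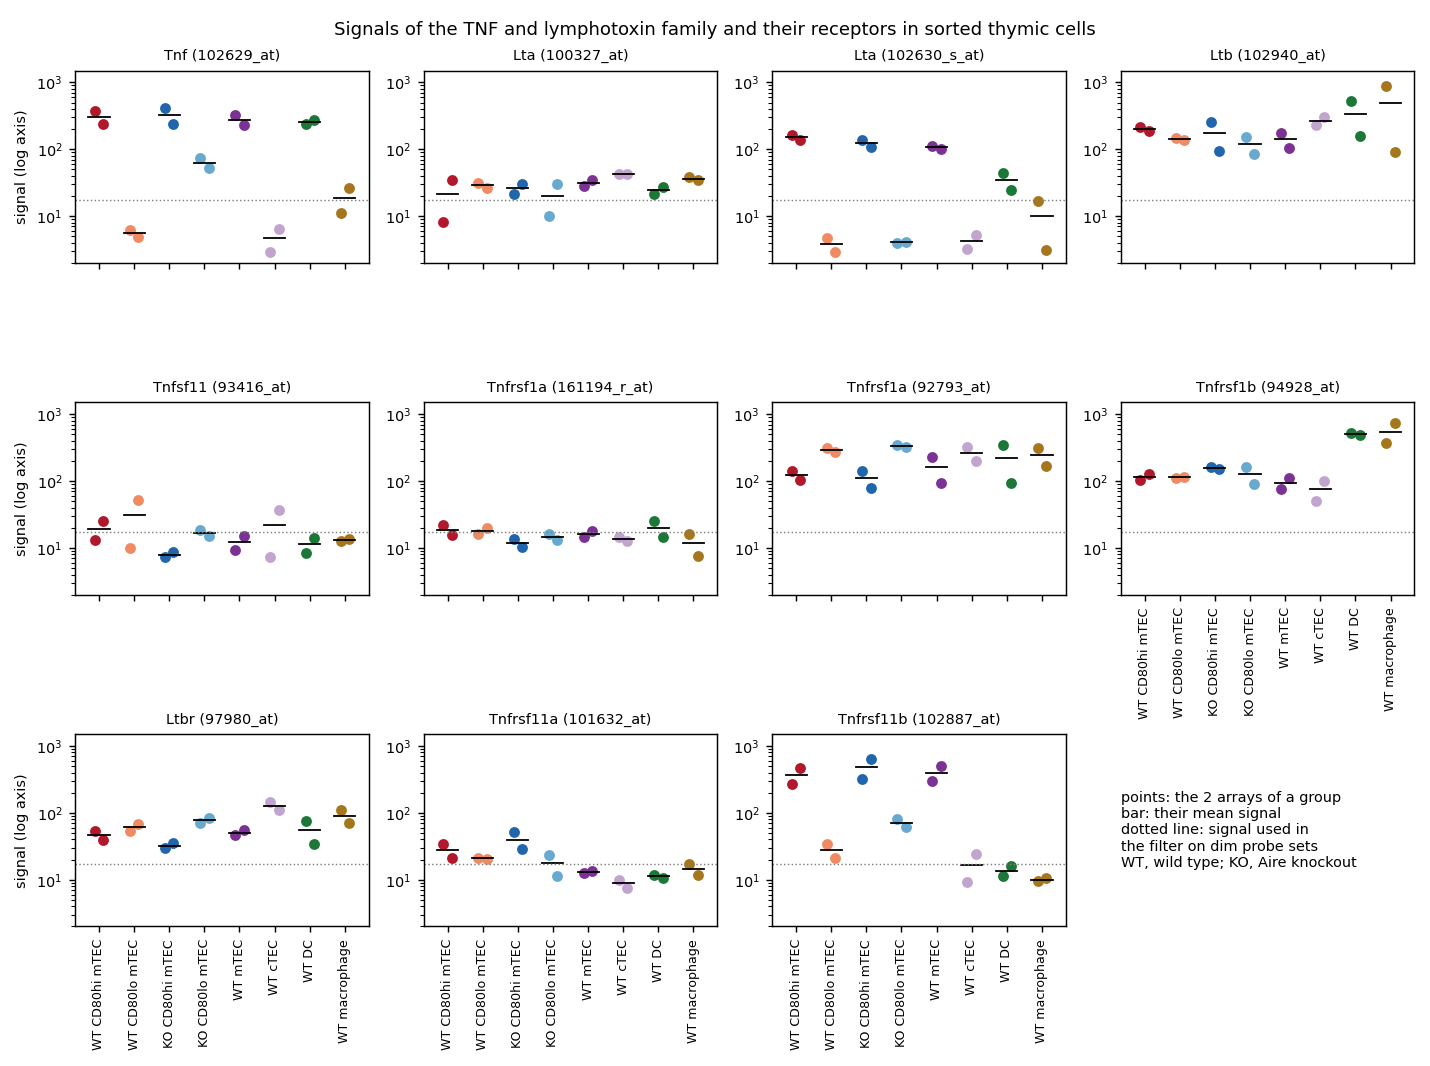
Signal on each array (points, log axis) of the 11 probe sets in the 8 groups, with the mean of each group as a bar and the filter signal of 17.3 as a dotted line. Tnf, Lta (102630_s_at) and Tnfrsf11b reach over 100 in CD80hi and undivided mTEC and lie far lower in wild-type CD80lo mTEC and cTEC, while Tnfrsf1b stands out in dendritic cells and macrophages.

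Tnf signals separated the groups widely. On the CD80-sorted wild-type arrays its signal was 375.4 and 241.5 in CD80hi and 6.2 and 4.9 in CD80lo mTEC. Without Aire it was 416.2 and 241.2 in CD80hi and 73.3 and 53.0 in CD80lo cells. Undivided mTEC gave 324.1 and 230.5, dendritic cells 239.7 and 272.4, macrophages 11 and 26.2, and cTEC 2.9 and 6.5. The groups therefore formed a high set, a middle and a dim end. The high set was knockout CD80hi, wild-type CD80hi, undivided mTEC and dendritic cells, with means of 329, 308, 277 and 256, each overlapping its neighbour. Knockout CD80lo cells followed at 63.2 ± 14.4 (SD, n = 2) and macrophages at 18.6 ± 10.7 (SD, n = 2), overlapping neither neighbour. Wild-type CD80lo mTEC at 5.55 ± 0.92 (SD, n = 2) and cTEC at 4.70 ± 2.55 (SD, n = 2) overlapped at the bottom.

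Lta was read by a pair of probe sets that disagreed. Probe set 102630_s_at, whose suffix marks probes that can match more than 1 related transcript, gave 164.9 and 135.7 in wild-type CD80hi, 138.9 and 106.3 in knockout CD80hi and 113.1 and 101.2 in undivided mTEC. Dendritic cells gave 43.8 and 24.7, below all of those arrays. The other groups were dim on every array, with 16.8 and 3.1 in macrophages and 2.9 to 5.3 in cTEC and both CD80lo groups. Probe set 100327_at gave 8.3 to 43.4 over all arrays, with its highest mean in cTEC (43.3 ± 0.141, SD, n = 2) and passed no comparison. Over the 8 group means on the log2 scale the pair had a Pearson r of -0.36, while 102630_s_at and Tnf had one of 0.89. These correlations share libraries and are given as a description. Which of the Lta probe sets reports lymphotoxin alpha RNA was not tested.

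Ltb, the membrane anchor of the lymphotoxin complex, was well above the dim level on every array and differed most within groups. Macrophages gave 880.5 and 90.4, dendritic cells 521.4 and 158.2, and cTEC 227.7 and 302.7. Among mTEC the signals were 215.5 and 186.1 in wild-type CD80hi, 146.9 and 139.6 in wild-type CD80lo, 258.0 and 95.4 in knockout CD80hi, 151.0 and 86.1 in knockout CD80lo and 175.4 and 106.2 in undivided mTEC. All neighbours in the order of group means overlapped except cTEC and wild-type CD80hi mTEC. On the first macrophage array, where Ltb was 9.74 times its level on the second, the thymocyte marker sum was 7325.7 against 3099.6. Thymocytes express Ltb, and their part in this value was not tested. In dendritic cells the first array also had the larger Ltb signal, while the thymocyte sums were 2778 and 2988. Single markers in those sums differed in both directions. Cd8a, a large part of them, gave 1421.6 and 1106.7, whereas Dntt gave 273.3 and 664.1 and Rag1 gave 77.9 and 184.2. The similar sums therefore do not show equal thymocyte content.

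**Figure D2:**
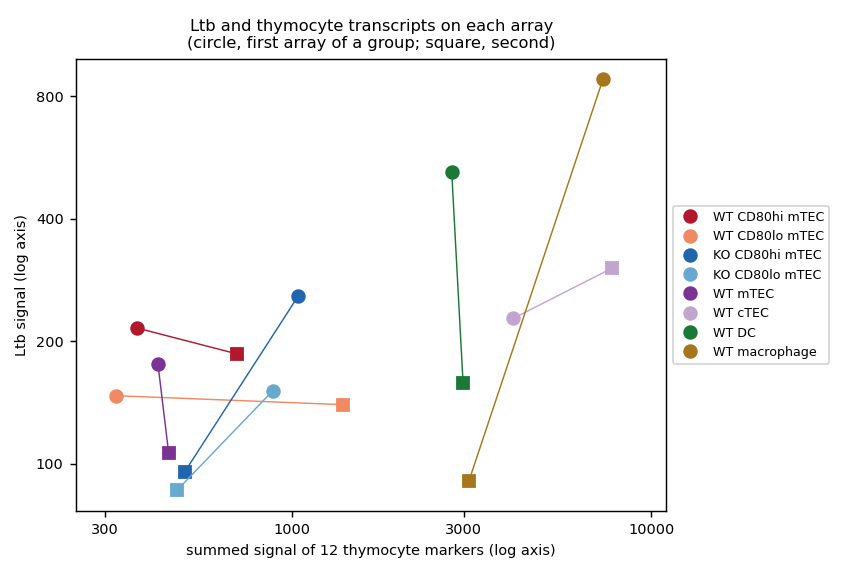
Ltb signal against the summed signal of 12 thymocyte markers on each array (both log axes), with circles for the first and squares for the second array of a group and a line joining the pair. The macrophage arrays lie far apart on both axes, 880.5 against 90.4 for Ltb. The dendritic cell arrays differ in Ltb at nearly the same thymocyte sum, although single markers in that sum differed between them.

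Tnfsf11, which encodes RANKL, was dim on 12 of the 16 arrays. The exceptions were 52.9 on the second wild-type CD80lo array, 37.4 on the second cTEC array, 24.9 on the second wild-type CD80hi array and 18.6 on the first knockout CD80lo array. In the first 3 of these groups the other array gave 9.9, 7.2 and 13.3, so no group had a signal above the dim level on both arrays.

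Among the receptors, Tnfrsf1a, the main signalling receptor for TNF, was brightest on 92793_at. It gave 342.2 and 321.0 in knockout CD80lo and 313.5 and 271.2 in wild-type CD80lo mTEC, against 140.6 and 79.0 in knockout CD80hi and 140.3 and 103.6 in wild-type CD80hi mTEC. CD80lo and CD80hi arrays did not overlap in either genotype, the reverse of the order of Tnf. Undivided mTEC gave 231.6 and 93.3, cTEC 317.9 and 201.4, macrophages 317.3 and 167.4 and dendritic cells 341.0 and 94.8, so those groups overlapped one another. The second Tnfrsf1a probe set, 161194_r_at, gave 7.7 to 25.3 and showed no such order. Its suffix marks a probe set built under relaxed design rules.

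Tnfrsf1b, the second TNF receptor and one known from leukocytes, gave 514.4 and 480.5 in dendritic cells and 372.3 and 727.1 in macrophages. The 12 epithelial arrays lay between 50.9 and 163.8, below every myeloid array. Within the epithelial groups the means ran from 75.3 ± 34.5 (SD, n = 2) in cTEC to 158 ± 6.43 (SD, n = 2) in knockout CD80hi cells, and neighbours overlapped except wild-type CD80lo and undivided mTEC.

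Ltbr, the receptor of the membrane lymphotoxin complex, was measured above the dim level on all arrays. It gave 145.0 and 109.6 in cTEC, 111.9 and 70.1 in macrophages, 75.2 and 33.8 in dendritic cells and 46.9 and 54.6 in undivided mTEC. CD80-sorted cells gave 71.0 and 85.0 in knockout CD80lo, 53.8 and 67.9 in wild-type CD80lo, 53.0 and 39.7 in wild-type CD80hi and 29.6 and 35 in knockout CD80hi. cTEC thus headed the order and knockout CD80hi mTEC closed it, without overlap with the group next above.

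Tnfrsf11a, the receptor RANK, was close to the dim level in most groups. Its signals were 50.9 and 28.5 in knockout CD80hi, 33.8 and 21.3 in wild-type CD80hi, 21.4 and 20.6 in wild-type CD80lo and 23.7 and 11.5 in knockout CD80lo mTEC. Undivided mTEC gave 12.5 and 13.7, and cTEC, dendritic cells and macrophages gave 7.6 to 16.9. The 4 CD80hi arrays all exceeded the dim level, and no array of undivided mTEC, cTEC, dendritic cells or macrophages did. Both undivided mTEC arrays lay below every array of wild-type CD80hi and of wild-type CD80lo cells. Whether the CD80-sorted and undivided sets of arrays differ in level for this probe set was not tested.

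Tnfrsf11b, the RANKL decoy osteoprotegerin, followed the CD80 sort and was brightest in mTEC. It gave 273.6 and 461.6 in wild-type CD80hi, 319.6 and 643.3 in knockout CD80hi and 295.3 and 505.9 in undivided mTEC. CD80lo cells gave 33.7 and 21.4 in the wild type and 80.4 and 61.2 in the knockout, which did not overlap. Dendritic cells and macrophages were dim on all arrays at 9.6 to 16, and cTEC gave 9.1 and 24.6. Over the 8 group means its Pearson r was 0.71 with Tnf and 0.82 with Lta (102630_s_at), again as a description of groups that share libraries.

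Wild-type CD80hi and CD80lo mTEC were compared for differences between mature and less mature cells. Tnf rose by 4.89 ± 0.41 in CD80hi cells (limma adjusted p = 7.20e-06), Lta (102630_s_at) by 4.17 ± 0.43 (limma adjusted p = 2.97e-05) and Tnfrsf11b by 3.50 ± 0.46 (limma adjusted p = 0.000158). The other Lta probe set, 100327_at, differed by -0.58 ± 0.49 and did not pass, and no member was lower. These calls made 3 of 11 probe sets higher and 0 lower, beside 7.98% higher and 4.74% lower over all tested probe sets, 1186 calls in all, or 626 to 681 when any 1 of the 4 arrays was left out. The median difference was 0.034 for the members and -0.035 for all tested probe sets. Tnfrsf1a (92793_at) differed by -1.24 ± 0.56 and did not pass (limma adjusted p = 0.189). Ltb differed by 0.47 ± 0.81, with a 95% interval of -1.26 to 2.20, and Tnfrsf1b by 0.022 ± 0.40, with an interval of -0.84 to 0.89. Neither interval shows that the fractions had the same level.

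Markers of other cells also differed between these fractions. The sum of 10 measured dendritic cell markers was 5405 and 5623 in wild-type CD80hi against 2635 and 1894 in CD80lo mTEC. Of these markers 2 of 10 were higher and 0 lower: Ccl22, a chemokine, gave 1651.2 and 1977.2 against 485.4 and 277.8, and Ccl17, a related chemokine, gave 242.6 and 206.6 against 88 and 52.6. Ccr7, a migration receptor, gave 107.2 and 137.7 against 63.6 and 31.8, while the Itgax arrays overlapped, at 46.0 and 61.8 against 53.8 and 33.7. The 12 macrophage markers summed to 1784 and 1461 against 613 and 702, with 4 of 12 higher (Csf1r, Lyz2, Marco and Mrc1) and 0 lower. Lyz2 gave 593.0 and 497.5 against 41.2 and 29.2, and Mrc1 gave 128.2 and 113.0 against 0.9 and 5.7. Adgre1, which did not pass, gave 4.3 and 14.6 against 2.3 and 2.4. The 5 measured B cell markers summed to 406 and 343 against 107 and 172, with 1 of 5 higher and 0 lower. The higher one was Blk, at 213.0 and 192.6 against 14.9 and 31.3, while Cd79a gave 9.6 and 10.6 against 10.9 and 24.3. Fibroblast and endothelial markers ran the other way. The 9 fibroblast markers summed to 793 and 705 in CD80hi against 2846 and 2553 in CD80lo cells, with 4 of 9 lower, and the 8 endothelial markers to 236 and 246 against 978 and 559, with 3 of 8 lower. The part of these markers in the Tnf, Lta and Tnfrsf11b differences was not tested. In bulk RNA, fewer cells of a type and less RNA per cell cannot be told apart.

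Knockout and wild-type CD80hi mTEC were compared for the effect of Aire in mature cells. No member passed the test: limma called 0 of 11, and 0 had an unadjusted p under 0.05. The differences were 0.073 ± 0.41 for Tnf, with a 95% interval of -0.80 to 0.94, -0.29 ± 0.43 for Lta (102630_s_at), with an interval of -1.22 to 0.64, and 0.35 ± 0.46 for Tnfrsf11b, with an interval of -0.63 to 1.32. The intervals leave room for moderate changes in either direction. Over all tested probe sets 0.172% were higher and 2.88% lower in the knockout, 284 calls in all, which fell to 145 without knockout array 1, 88 without wild-type array 1 and 81 without wild-type array 2. Members had a median difference of -0.18 against -0.051 over all tested probe sets.

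In CD80lo mTEC, Tnf rose in the knockout by 2.70 ± 0.41 (limma adjusted p = 0.00741). It was the 1 of 11 member probe sets that passed, and 0 were lower, beside 0.279% higher and 0.0429% lower over all tested probe sets, 30 calls in all. The median difference was 0.049 for the members and -0.053 for all tested probe sets. Tnfrsf11b differed by 1.24 ± 0.46 and did not pass (limma adjusted p = 0.619), and Lta (102630_s_at) differed by 0.049 ± 0.43 (limma adjusted p = 0.999). The Tnf call was lost without knockout array 1 (limma adjusted p = 0.119), wild-type array 1 (limma adjusted p = 0.0783) or wild-type array 2 (limma adjusted p = 0.127), with a difference of 2.48 to 2.79, and all calls then numbered 19, 11 and 8. Both wild-type arrays were dim for Tnf, and the difference was 3.28 with a constant of 1 and 1.80 with a constant of 17.3.

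Other transcripts were set beside this Tnf difference. Cd80, the sort marker, gave 9.5 and 13.7 in knockout and 13.7 and 6.6 in wild-type CD80lo cells, a difference of 0.16 ± 0.37 that did not pass (limma adjusted p = 0.999). Dendritic cell markers summed to 2365 and 1342 in the knockout and 2635 and 1894 in the wild type, with Itgax at 41.7 and 23.6 against 53.8 and 33.7. Macrophage markers summed to 1259 and 806 against 613 and 702, with 0 of 12 higher and 0 lower. Adgre1 gave 2.9 and 3.2 against 2.3 and 2.4, and Lyz2 gave 161.9 and 184.3 against 41.2 and 29.2. The medullary epithelial sum was 3114 and 1874 against 1760 and 1434, and the fibroblast sum of 9 markers was 3902 and 3324 against 2846 and 2553. Their part in the Tnf difference was not tested.

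Within the knockout, CD80hi cells were higher than CD80lo cells for the same 3 probe sets as in the wild type. Tnf rose by 2.26 ± 0.41 (limma adjusted p = 0.0019), Lta (102630_s_at) by 3.84 ± 0.43 (limma adjusted p = 5.68e-05) and Tnfrsf11b by 2.61 ± 0.46 (limma adjusted p = 0.00151). All 11 members included 3 higher and 0 lower, beside 5.93% higher and 6.87% lower over all tested probe sets, 1193 calls in all, or 747 without knockout CD80hi array 2 and 744 without knockout CD80lo array 1. Across the members the median difference was 0.41, against -0.030 across all tested probe sets. The receptors Tnfrsf1a (92793_at, -1.61 ± 0.56, limma adjusted p = 0.0772), Ltbr (-1.16 ± 0.38, limma adjusted p = 0.0596) and Tnfrsf11a (0.999 ± 0.39, limma adjusted p = 0.116) did not pass, although each had an unadjusted p under 0.05. With the sample number as a block in the fit, all of these receptors passed (limma adjusted p of 0.00169, 0.0213 and 0.0484). What a sample number marks is not given. The sum of dendritic cell markers was 8960 and 4581 in CD80hi against 2365 and 1342 in CD80lo cells, and 5 of 10 were higher. Among them Ccl22 gave 1838.9 and 689.2 against 360.4 and 114.2 and Ccr7 214 and 285 against 40.3 and 39.7, while Itgax gave 37.3 and 47.7 against 41.7 and 23.6. B cell markers summed to 875 and 694 against 159 and 96, with 1 of 5 higher, Blk (681.1 and 535.6 against 41.8 and 15.8), and 0 lower. Fibroblast markers, of which 3 of 9 were lower, summed to 1015 and 1087 against 3902 and 3324. Macrophage markers summed to 1046 and 953 against 1259 and 806, with 2 of 12 higher (Cd68 and Mrc1) and 1 lower (Cd14). Endothelial markers summed to 260 and 264 against 250 and 795, with 0 of 8 higher and 2 lower (Eng and Selp). The part of these markers was not tested.

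The test of whether the CD80 difference depended on genotype called Tnf alone among the members. The Tnf difference between CD80hi and CD80lo cells was 2.26 in the knockout and 4.89 in the wild type, which differ by -2.63 ± 0.57 (limma adjusted p = 0.0428). Among 11 member probe sets 1 was lower and 0 higher, beside 1.3% lower and 0% higher over all tested probe sets, 121 calls in all, or 34 to 99 with 1 array left out. The other members had limma adjusted p values of at least 0.934, with -0.34 ± 0.61 for Lta (102630_s_at) and -0.89 ± 0.64 for Tnfrsf11b. The median was -0.34 for the members and 0.013 for all tested probe sets. The Tnf call was lost without each of 7 of the 8 arrays, all but knockout CD80hi array 1, where the limma adjusted p ranged from 0.0653 to 0.222, and with a constant of 1 (limma adjusted p = 0.0508) or 17.3 (limma adjusted p = 0.0807). The comparisons among CD80-sorted groups share arrays, so their values are not independent of one another.

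**Figure D3:**
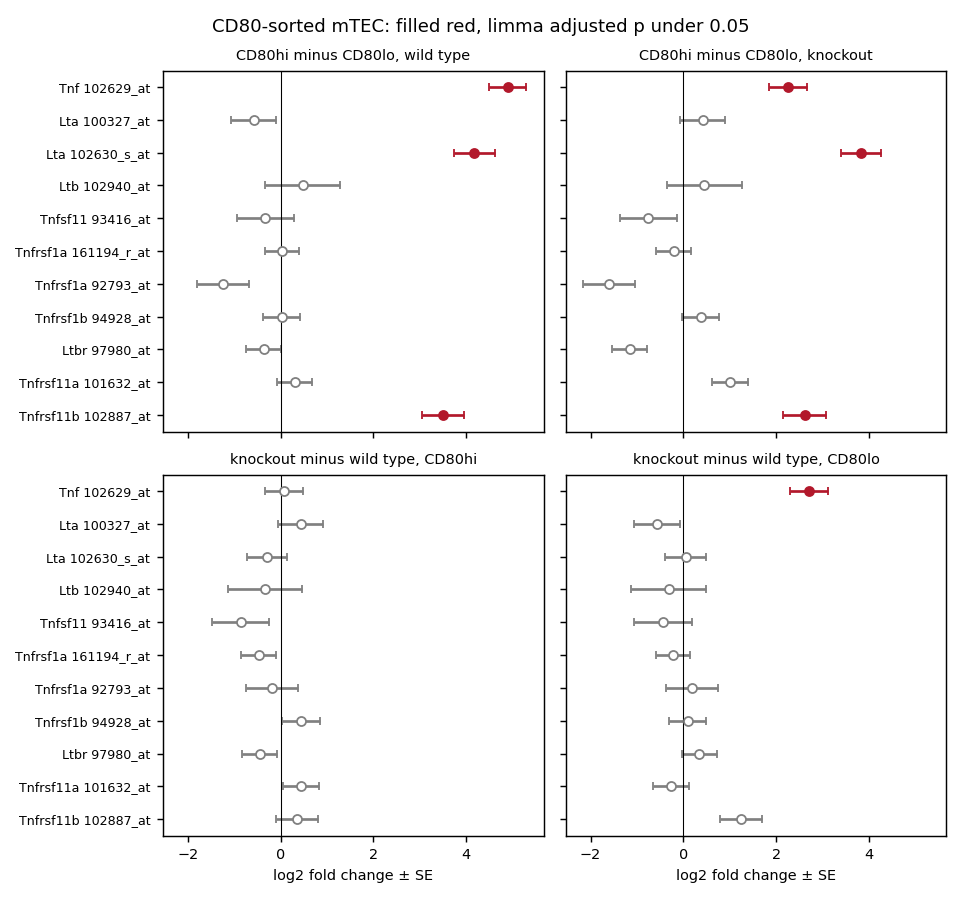
Log2 fold change with its standard error (x axis) of the 11 probe sets in 4 comparisons of CD80-sorted mTEC; filled red points passed a limma adjusted p of 0.05. Tnf, Lta (102630_s_at) and Tnfrsf11b are higher in CD80hi cells of both genotypes, none passes between genotypes in CD80hi cells, and Tnf alone passes in CD80lo cells.

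Medullary and cortical epithelium differed in 4 members. Tnf was higher in mTEC than in cTEC by 4.90 ± 0.41 (limma adjusted p = 4.21e-06), Tnfrsf11b by 4.28 ± 0.46 (limma adjusted p = 2.32e-05) and Lta (102630_s_at) by 3.64 ± 0.43 (limma adjusted p = 5.36e-05). Ltbr fell by 1.24 ± 0.38 from cTEC to mTEC (limma adjusted p = 0.0383). Thus 3 of 11 were higher and 1 lower, beside 11.1% higher and 4.25% lower over all tested probe sets, 1434 calls in all, or 860 to 946 with 1 array left out. The median difference was 0.18 for the members and -0.029 for all tested probe sets. The Ltbr call was lost without cTEC array 1, cTEC array 2, mTEC array 1 or mTEC array 2 (limma adjusted p of 0.222, 0.078, 0.184 and 0.115) and with no filter on dim probe sets (limma adjusted p = 0.0515). Thymocyte markers summed to 4127 and 7787 in cTEC against 422 and 452 in mTEC, and their part in the Ltbr difference was not tested. Dendritic cell markers ran the other way, with sums of 2918 and 3856 in mTEC against 697 and 1280 in cTEC and 5 of 10 higher. B cell markers summed to 480 and 436 against 120 and 149, with 2 of 5 higher (Blk and Cd79b) and 0 lower. Macrophage markers summed to 1316.9 and 1492.7 against 636.1 and 824.5, with 3 of 12 higher and 0 lower. Fibroblast markers summed to 1178.5 and 1137.9 against 922.3 and 608, with 3 of 9 higher and 0 lower. Endothelial markers summed to 360 and 306.3 against 96.1 and 175.1, with 2 of 8 higher and 0 lower. The part of these markers in the Tnf, Lta and Tnfrsf11b differences was not tested.

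Against dendritic cells, mTEC were higher for the decoy Tnfrsf11b by 4.42 ± 0.46 (limma adjusted p = 7.55e-06) and for Lta (102630_s_at) by 1.56 ± 0.43 (limma adjusted p = 0.016). Tnfrsf1b was lower in mTEC by -2.37 ± 0.40 (limma adjusted p = 0.000542). Tnf, high in both, differed by 0.096 ± 0.41, with a 95% interval of -0.78 to 0.97. The 11 members included 2 higher and 1 lower, beside 16.8% higher and 7.58% lower over all tested probe sets. After quantile normalisation, with the median over all tested probe sets shifted by -0.23, the share of calls that were higher was 58.3% in place of 68.9%. Medians of the difference were 0.078 for the members and 0.097 for all tested probe sets. The Lta call was lost without dendritic cell array 2, mTEC array 1 or mTEC array 2 (limma adjusted p of 0.127, 0.0894 and 0.0635) and with a constant of 1 (limma adjusted p = 0.0518).

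Against macrophages, mTEC were higher for Tnfrsf11b by 4.72 ± 0.46 (limma adjusted p = 4.83e-06), for Tnf by 3.65 ± 0.41 (limma adjusted p = 1.73e-05) and for Lta (102630_s_at) by 3.1 ± 0.43 (limma adjusted p = 0.000126), and lower for Tnfrsf1b by -2.44 ± 0.40 (limma adjusted p = 0.000491). The 11 members included 3 higher and 1 lower, beside 14.6% higher and 7.37% lower over all tested probe sets. The median difference was -0.10 for the members and 0.0094 for all tested probe sets. Ltb rested on single macrophage arrays. Its difference was -1.04 ± 0.81 over both (limma adjusted p = 0.442), -2.65 without macrophage array 2 (limma adjusted p = 0.0124) and 0.57 without macrophage array 1, the array with the larger thymocyte and Krt8 signals. Set array against array, it was -2.30 between the first and 0.22 between the second arrays.

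Dendritic cells and macrophages differed in Tnf and 1 Lta probe set, and no receptor passed the test. Tnf was higher in dendritic cells by 3.56 ± 0.41 (limma adjusted p = 6.42e-05) and Lta (102630_s_at) by 1.54 ± 0.43 (limma adjusted p = 0.039), while Lta (100327_at) differed by -0.50 ± 0.49 and did not pass. The 11 members included 2 higher and 0 lower, beside 3.63% higher and 5.62% lower over all tested probe sets, 862 calls in all, 566 without dendritic cell array 1, and 1382 with the sample number as a block. Medians of the difference were -0.066 for the members and -0.084 for all tested probe sets. Tnfrsf1b, bright in both, differed by -0.066 ± 0.40, with a 95% interval of -0.93 to 0.80. The Lta call was lost without dendritic cell array 1 (limma adjusted p = 0.267), without macrophage array 2 (1.54 became 0.81, limma adjusted p = 0.317) and with no filter (limma adjusted p = 0.0622).

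cTEC were lower than dendritic cells for Tnf by -4.80 ± 0.41 (limma adjusted p = 2.64e-06), for Tnfrsf1b by -2.72 ± 0.40 (limma adjusted p = 0.000238) and for Lta (102630_s_at) by -2.07 ± 0.43 (limma adjusted p = 0.00348), and higher for Ltbr by 1.24 ± 0.38 (limma adjusted p = 0.0347). The members thus had 1 of 11 higher and 3 lower, beside 10.5% higher and 7.18% lower over all tested probe sets, 1652 calls in all, or 1040 without cTEC array 1 and 1097 without dendritic cell array 1. The median difference was -0.13 for the members and 0.087 for all tested probe sets. The Ltbr call was lost without cTEC array 1, cTEC array 2 or dendritic cell array 2 (limma adjusted p of 0.208, 0.0659 and 0.287), the last moving the difference to 0.71, and with quantile normalisation (limma adjusted p = 0.0721).

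cTEC were lower than macrophages for Tnfrsf1b by -2.78 ± 0.40 (limma adjusted p = 0.000383), the 1 of 11 members lower, with 0 higher, beside 5.94% higher and 4.87% lower over all tested probe sets, 1008 calls in all, or 576 without cTEC array 1 and 580 without macrophage array 2. The members' median difference was 0.13, and that of all tested probe sets was 0.032. Tnf, dim in cTEC, differed by -1.25 ± 0.41 and did not pass (limma adjusted p = 0.0702), but did with the sample number as a block (limma adjusted p = 0.0195) and without macrophage array 1 (-1.73, limma adjusted p = 0.0205).

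**Figure D4:**
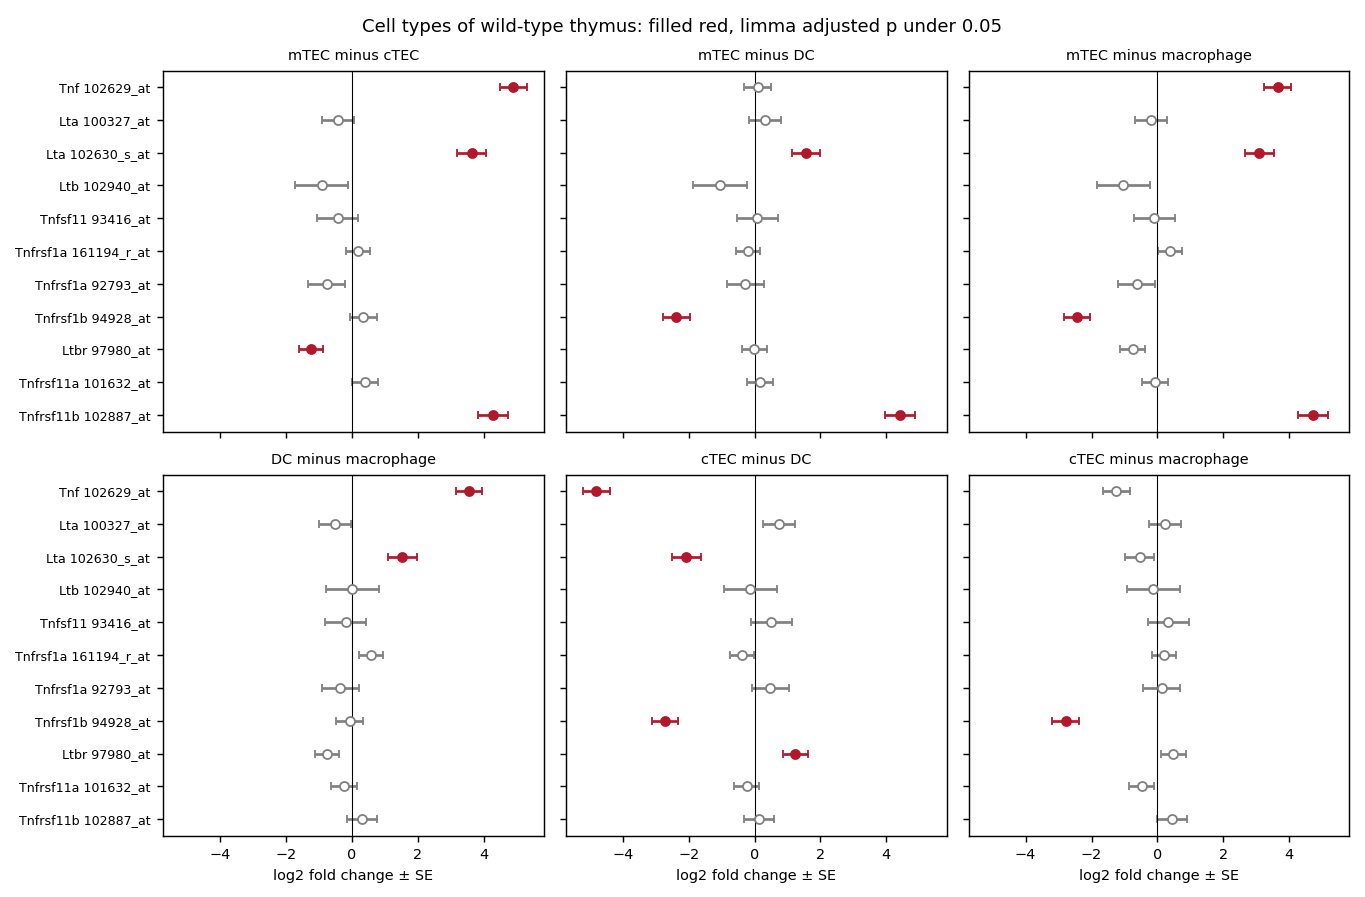
Log2 fold change with its standard error (x axis) of the 11 probe sets in 6 comparisons of cell types from wild-type thymus; filled red points passed a limma adjusted p of 0.05. Tnfrsf11b is higher in mTEC than in each other type, Tnf is higher in mTEC and dendritic cells than in cTEC and macrophages, and Tnfrsf1b is lower in both epithelial types than in both myeloid types.

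The signalling genes, further family members and known targets were read from 5 lists. They held 21 tested genes of TNF receptor and NF-kB signalling, 4 other ligands of the superfamily, 8 other receptors of the superfamily, 24 genes known to be induced by TNF through NF-kB and 5 targets of the lymphotoxin beta receptor, with 5 genes in more than 1 list. The array carried 22 of 28, 8 of 14, 10 of 21, 24 of 26 and 6 of 8 of the genes listed. Up to 3 genes per list with the smallest p are named for 5 of the comparisons. The lists were not tested as sets, and their counts stand beside the shares called over all tested probe sets.

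In wild-type CD80hi against CD80lo mTEC, 7.98% of all tested probe sets were higher and 4.74% lower, with a median of -0.035. Of the signalling genes 1 of 21 rose and 0 fell, with a median of 0.51. It was Nfkbib, an inhibitor of NF-kB, at 231.0 and 207.1 against 84.9 and 61.4 (1.54 ± 0.35, limma adjusted p = 0.00956). Of the other ligands 2 of 4 rose and 0 fell, with a median of 0.96. Cd70, the ligand of CD27, gave 308.1 and 191.2 against 59.7 and 22.5 (2.56 ± 0.42), and Tnfsf9, the ligand 4-1BBL, gave 199.3 and 241.9 against 50.9 and 40.5 (2.16 ± 0.42). Of the other receptors 3 of 8 rose and 0 fell, with a median of 0.71. They were Cd40, a receptor for T cell help (653.3 and 772.3 against 226.2 and 165.3), Tnfrsf17, the B cell maturation antigen (152.1 and 103.9 against 29.7 and 35.8), and Tnfrsf9, the receptor 4-1BB (54.7 and 57.9 against 12 and 9.4). CD80hi arrays exceeded CD80lo arrays for all 6 of these genes, which were picked by their calls on the same arrays, so this adds no support. The Tnfrsf17 call depended on the first CD80hi and the first CD80lo array and was lost without either (limma adjusted p of 0.106 and 0.0731), and Nfkbib without CD80hi array 1, CD80hi array 2 or CD80lo array 2 (limma adjusted p of 0.0844, 0.0534 and 0.113). Tnfrsf9 lost it without each of the 4 arrays (limma adjusted p of 0.0536 to 0.0973) and with a constant of 1 (limma adjusted p = 0.0681).

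Of the TNF-induced genes 6 of 24 rose and 2 fell in that comparison, with a median of 0.40, beside 7.98% and 4.74% over all tested probe sets. Saa3, an acute-phase protein, gave 2797.9 and 2078.6 in CD80hi against 107.2 and 43.9 in CD80lo cells (5.03 ± 0.77). Cxcl2, a neutrophil chemokine, gave 1018.9 and 1067.3 against 99.4 and 134.1 (3.12 ± 0.53), and Csf2, the cytokine GM-CSF, gave 67.5 and 46.4 against 2.9 and 1.9 (3.08 ± 0.49). The list thus held genes that moved in both directions. Of the lymphotoxin beta receptor targets 2 of 5 rose and 1 fell, with a median of 0.69. Madcam1, an adhesion molecule for lymphocyte homing, gave 281.0 and 260.7 against 52.5 and 35.1 (2.53 ± 0.34), and Cxcl13, a B cell chemokine, gave 47.2 and 93.7 against 7.3 and 10.1 (2.41 ± 0.39). Cxcl12, a chemokine for progenitors and lymphocytes, fell, with 14.5 and 16.6 against 224.1 and 295.2 (-3.69 ± 0.59).

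Between genotypes in CD80hi mTEC, 0 genes of the 5 lists rose and 1 fell, beside 0.172% higher and 2.88% lower over all tested probe sets. It was Lcn2, an iron-binding acute-phase protein of the TNF-induced list, with 13.2 and 17.3 in the knockout against 55.0 and 51.5 in the wild type (-1.54 ± 0.33, limma adjusted p = 0.0192). In CD80lo cells Lcn2 gave 55.4 and 48.1 in the knockout and 20.5 and 23.0 in the wild type, so its order turned between the fractions, and the test of that difference passed (-2.63 ± 0.47, limma adjusted p = 0.0135). The first Lcn2 call was lost without knockout array 1, wild-type array 1 or wild-type array 2 (limma adjusted p of 0.143, 0.187 and 0.127) and with a constant of 1 (limma adjusted p = 0.0887). The second was lost without each of 6 of the 8 arrays, all but knockout CD80hi array 2 and knockout CD80lo array 2 (limma adjusted p of 0.0523 to 0.0883), and with a constant of 1 (limma adjusted p = 0.0736). Between genotypes in CD80lo cells 0 of the listed genes passed, and in the test of genotype dependence Lcn2 alone did. In the knockout, CD80hi against CD80lo cells showed 4 higher and 2 lower of 21 signalling genes, 2 higher of 4 ligands, 3 higher of 8 receptors, 3 higher and 3 lower of 24 TNF-induced genes, and 2 higher and 1 lower of 5 lymphotoxin targets, with medians of 0.69, 1.16, 1.17, 0.18 and 1.09. Over all tested probe sets 5.93% were higher and 6.87% lower there, with a median of -0.030.

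In mTEC against cTEC, 11.1% of all tested probe sets were higher and 4.25% lower, with a median of -0.029. Of the signalling genes 3 of 21 rose and 0 fell, with a median of 0.68. Log2 differences stand in parentheses after the signals. Traf1, an adaptor induced by NF-kB, gave 373.8 and 282.4 against 13.3 and 48.0 (3.42), Nfkb2, the precursor of the NF-kB subunit p52, gave 301.4 and 417.4 against 94.9 and 100.7 (1.81), and Tnip1, an inhibitor of NF-kB signalling, gave 443.7 and 400.6 against 151.2 and 144.4 (1.48). Of the ligands 2 of 4 rose and 0 fell, with a median of 2.18, led by Tnfsf9 (228.2 and 212.9 against 7.7 and 23.9) and Cd70 (245.4 and 205.5 against 28.5 and 19.7). Of the receptors 4 of 8 rose and 1 fell, with a median of 1.49, and those with the smallest p were Tnfrsf17 (2.14), Tnfrsf9 (2.41) and Cd40 (1.37). The TNF-induced list had 7 of 24 higher and 1 lower, with a median of 0.77, including Cxcl2 (4.48), Saa3 (5.71) and Ptgs2, the prostaglandin synthase COX-2 (4.11). The lymphotoxin list had 3 of 5 higher and 1 lower, with a median of 1.31. Madcam1 gave 371.8 and 473.3 against 30.0 and 36.2 (3.49), and Cxcl12 gave 54.5 and 54.6 against 1245.3 and 1248.7 (-4.40). Several calls were lost with 1 array left out: Nfkb2 and Tnip1 without each of the 4 arrays (limma adjusted p of up to 0.157 and 0.141), Cd40 without cTEC array 2 or mTEC array 2 (limma adjusted p of 0.0621 and 0.0585) and Traf1 without cTEC array 1 (limma adjusted p = 0.075).

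**Figure D5:**
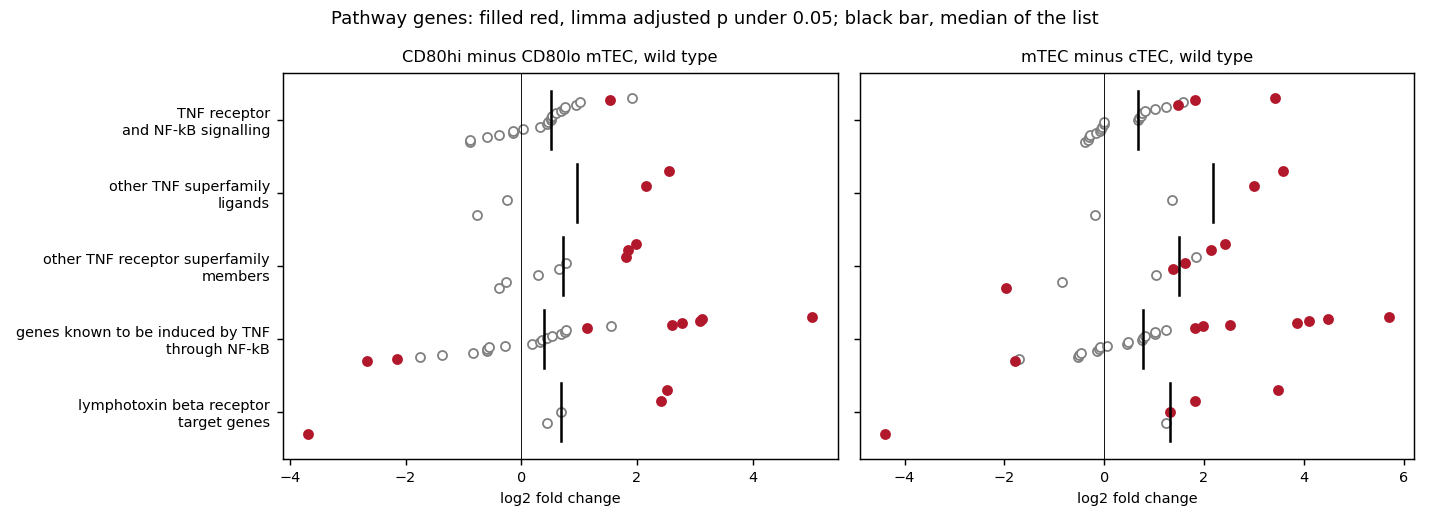
Log2 fold change (x axis) of each tested gene of the 5 lists in CD80hi against CD80lo mTEC (left) and in mTEC against cTEC (right), both wild type; filled red points passed a limma adjusted p of 0.05 and the black bar is the list's median. The medians lie above 0 in all 5 lists, and both TNF-induced genes and lymphotoxin targets include points that passed on either side of 0.

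In dendritic cells against macrophages, 3.63% of all tested probe sets were higher and 5.62% lower, with a median of -0.084. Of the signalling genes 5 of 21 rose and 0 fell, with a median of 0.53. Traf1 gave 1332.9 and 796.3 against 67.5 and 5.2 (5.27), Relb, a subunit of the alternative NF-kB pathway, gave 1233.2 and 509.1 against 158.0 and 80.2 (2.76), and Birc2, an inhibitor of apoptosis at TNF receptors, gave 746.4 and 981.9 against 283.7 and 322.4 (1.49). Of the ligands 2 of 4 rose and 0 fell, with a median of 1.35, with Tnfsf9 at 2.30 and Cd70 at 1.83. Of the receptors 2 of 8 rose and 1 fell, with a median of 0.99. Cd40 gave 852.9 and 874.2 against 89.9 and 59.2 (3.48), Tnfrsf4, the receptor OX40, gave 148.5 and 177.0 against 24.8 and 10.3 (2.98), and Tnfrsf21, a death receptor, gave 16.1 and 53.7 against 70.9 and 380.4 (-2.29). The TNF-induced list had 4 of 24 higher and 3 lower, with a median of 0.27, with the chemokine Ccl5 at 5.34, the monocyte chemokine Ccl2 at -1.93 and the adhesion molecule Vcam1 at -3.16. The lymphotoxin list had 1 of 5 higher, Relb, and 1 lower, Cxcl12 (-4.46), with a median of 0.47. Cxcl12 gave 2.6 and 4.8 in dendritic cells against 366 and 87.6 in macrophages, and 1245.3 and 1248.7 in cTEC. The first macrophage array also had the larger epithelial Krt8 signal, 1212.6 against 172.2. The part of epithelial RNA in the Cxcl12 difference was not tested. Relb and Cd70 lost their calls without dendritic cell array 1 (limma adjusted p of 0.0743 and 0.0995) and Birc2 without dendritic cell array 2 (limma adjusted p = 0.0812). Tnfrsf21 lost its call without dendritic cell array 1 or macrophage array 2 (-1.55 and -1.11, limma adjusted p of 0.308 and 0.338), with quantile normalisation (limma adjusted p = 0.0814) and with no filter (limma adjusted p = 0.056).

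For the remaining pairs of cell types the lists are given by counts, in the order signalling, ligands, receptors, TNF-induced and lymphotoxin targets. In mTEC against macrophages 9 of 21, 2 of 4, 5 of 8, 16 of 24 and 4 of 5 were higher and 0, 0, 1, 0 and 0 lower, with medians of 0.66, 2.15, 2.12, 1.65 and 2.29, beside 14.6% higher and 7.37% lower over all tested probe sets. In mTEC against dendritic cells 1, 1, 2, 11 and 3 were higher and 1, 0, 1, 1 and 0 lower, with medians of -0.12, 1.01, 0.15, 0.80 and 2.34, beside 16.8% higher and 7.58% lower. In cTEC against dendritic cells 0, 0, 0, 6 and 1 were higher and 4, 2, 2, 4 and 2 lower, with medians of -0.42, -0.85, -1.06, 0.40 and 0.36, beside 10.5% higher and 7.18% lower. In cTEC against macrophages 1, 0, 2, 6 and 2 were higher and 0, 0, 1, 1 and 0 lower, with medians of 0.21, 0.054, 0.19, 0.62 and 1.04, beside 5.94% higher and 4.87% lower.

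Genes whose 8 group means ran most like those of a member were ranked by Pearson r on the log2 scale among 6831 candidates. For Tnf they were Serpind1 (0.967), Dnase1l3 (0.958) and Ndrg4 (0.955), and for Lta (102630_s_at) they were Slc6a20b (0.973), Sdhaf1 (0.968) and Cox17 (0.967). For Tnfrsf11b they were Fabp7 (0.989), Stra8 (0.988) and Adcy8 (0.987). For Tnfrsf1b they were Rasa4 (0.995), Coro1b (0.989) and Tmod3 (0.982), and for Ltbr Dctn1 (0.974), Ssbp2 (0.972) and Hspa4 (0.953). With 8 points and 6831 candidates, such values describe order only. Tnfrsf1a (92793_at) and Ltbr ran opposite to Tnf over the same means, with a Pearson r of -0.79 between Tnf and Tnfrsf1a (92793_at), -0.96 between Lta (102630_s_at) and Tnfrsf1a (92793_at) and -0.81 between Tnf and Ltbr, which are descriptions of groups that share libraries.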

How the data were processed

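Total RNA of 16 FACS-sorted mouse thymus samples was measured on Affymetrix mouse arrays, and titles gave 8 groups of 2, per the labels. The deposited table holds 1 linear intensity per probe set and array. The software the authors used to make the intensity values is not given in the sources used here. Each array's 2%-trimmed mean was 100.1, so values were used as deposited, and 0 pairs of arrays were identical. The table carries no detection calls, and the number of arrays limits the precision.

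After adding 4.8, the 20th percentile, log2 values were fitted with limma 3.58.1 in R 4.3.3 (lmFit, eBayes with trend) over all arrays, with 8 residual and 5.97 prior degrees of freedom. The 66 control probe sets and 3103 not above 17.3 on at least 2 arrays were left out, leaving 9319. Of the 12488 probe sets, 10833 had 1 gene symbol, 396 several and 1193 none listed. Tests for 11 comparisons were 2-sided with Benjamini-Hochberg adjustment over the tested probe sets. The steps were tested on simulated data.

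Named genes were all members, at most 3 genes per list with the smallest p past the threshold, and the 3 genes most like each called member. A gene's brightest probe set stood for it in the lists. Members, lists and tests were chosen with earlier results of these data known. Alternatives were quantile normalisation, constants of 1 and 17.3, no filter, a filter of 50, eBayes without trend, a block for the sample number, and leaving out each array in turn. Same-numbered arrays of the undivided mTEC, cTEC, dendritic cell and macrophage groups deviated together (over probe sets, Pearson r lay between 0.279 and 0.526 for the 6 pairs of groups), so for these groups a blocked value stands beside each result it changes. The fit itself had no block. In the CD80-sorted groups r was 0.517 between knockout CD80hi and knockout CD80lo cells and 0.0282 to 0.170 for the other pairs. For these groups the block is given with the alternatives. Where it changed a member call between fractions of one genotype, it also stands beside that result. Promoter sequences came from RefSeq (GRCm38.p6).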

Additional observations from a re-analysis of the deposited data

Results flagged for a closer look

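The Tnf difference between CD80hi and CD80lo mTEC depended on the Aire genotype by the test of that difference, at -2.63 ± 0.57 on the log2 scale (limma adjusted p = 0.0428). Tnf gave 73.3 and 53.0 in knockout CD80lo cells against 6.2 and 4.9 in wild-type CD80lo cells, while the CD80hi arrays of both genotypes overlapped. Both knockout CD80lo arrays were thus above both wild-type CD80lo arrays. The call was lost without each of 7 of the 8 arrays and with constants of 1 and 17.3.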

How the results depend on the processing

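Of 121 pairs of a member probe set and a comparison, 26 passed; 20 of these did so under every alternative run, 6 lost the call under at least 1, and 6 others passed only under an alternative. Among the pairs that passed in the main fit or under an alternative, the sign turned in 1. This was Ltb in mTEC against macrophages, from -1.04 to 0.57 without macrophage array 1 (-2.65 without macrophage array 2). Pairs that never passed were left out of that count. In mTEC against dendritic cells, for example, quantile normalisation turned the sign of 3 member probe sets, with 0 called members among them. Of 39 named pathway genes by comparison, 26 kept their call under every alternative run, 13 lost it under at least 1 and 0 reversed. Quantile normalisation moved the median of all tested probe sets by 0.11 between genotypes in CD80hi cells, -0.11 in mTEC against cTEC, -0.23 in mTEC against dendritic cells, -0.12 in mTEC against macrophages, 0.11 in dendritic cells against macrophages and -0.13 in cTEC against dendritic cells. It turned the sign of 0 called members.

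Member calls in the test of genotype dependence went from 1 to 0 with a constant of 1 and to 0 with a constant of 17.3, in dendritic cells against macrophages from 2 to 1 with no filter, and in cTEC against macrophages from 1 to 2 with a constant of 1. With the sample number as a block they went from 1 to 2 in cTEC against macrophages and, in the sorted groups, from 3 to 6 in knockout CD80hi against CD80lo cells, adding Tnfrsf1a (92793_at), Ltbr and Tnfrsf11a, and from 3 to 4 in the wild type, adding Tnfrsf1a (92793_at, limma adjusted p = 0.00949). The block changed no other member call. With 1 array left out, the members called ranged from 0 to 1 for knockout against wild type in CD80lo cells and for genotype dependence, from 1 to 2 for dendritic cells against macrophages and for cTEC against macrophages, from 2 to 3 and from 4 to 5 for mTEC against dendritic cells and macrophages, and from 3 to 4 for cTEC against dendritic cells. In mTEC against cTEC 3 were called each time, in CD80hi against CD80lo cells of either genotype 3, and between genotypes in CD80hi cells 0.

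Calls over all tested probe sets moved from 284 to 180 between genotypes in CD80hi cells and from 121 to 44 for genotype dependence with a constant of 1, where a constant of 17.3 gave 216. Between genotypes in CD80lo cells, 30 became 18 and 47 with those constants and 63 with the block. The block gave 1880 in place of 1193 for knockout CD80hi against CD80lo cells. Causes were not tested. Dim signals limit the precision of fold sizes: the Tnf difference between wild-type CD80hi and CD80lo cells was 5.53 with a constant of 1 and 3.80 with 17.3.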
